A study of Homo sapiens with 4 samples.

Results

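Aminoacyl-tRNA synthetases are the enzymes that join each amino acid to its tRNA, and their mRNAs were followed here in 4 RNA libraries of MDA-MB-231, an established human triple-negative breast cancer cell line grown in L15 medium with serum. The members were chosen by gene name: the synthetase symbols of one amino acid letter followed by ARS, the subunit genes FARSA and FARSB, EPRS, and AIMP1, AIMP2 and EEF1E1, which encode non-enzyme scaffold proteins. The rule found 40 genes among 12119 listed in any library, and all 40 were listed in all 4 libraries. They comprised 18 cytosolic enzyme genes, 17 mitochondrial enzyme genes whose names end in 2, the 2 genes GARS and KARS that each serve both compartments, and the 3 scaffold genes.

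The PABPC1 pulldown library held RNA recovered from a lysate of the cells on magnetic beads through an antibody to PABPC1, a protein that coats the poly(A) tails of mRNAs in the cytoplasm, and the input library stands for that lysate. The si_LINC00882 library came from cells transfected to silence the long non-coding RNA LINC00882; the labels call the agent an siRNA in one place and a Smart Silencer in another. The si_NC library came from cells given the control. Each group was 1 library, so nothing could be tested, and each difference describes the libraries at hand. The protocol also mentions IgG beads, and no IgG library was analysed here.

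A tRNA that carries its amino acid is handed to elongation factor 1 and brought to the ribosome, so synthetases set the supply for translation. Human cells make separate sets of these enzymes for the cytosol and for the mitochondrion, and the mitochondrial ones are encoded in the nucleus, translated in the cytosol and imported. Several cytosolic enzymes sit with AIMP1, AIMP2 and EEF1E1 in the multisynthetase complex. Synthetases fall into class I and class II by the fold of the catalytic domain. A number of cytosolic synthetase genes are activated by the transcription factor ATF4 when amino acids run short, through DNA elements of the form TGATGCAA.

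Levels are the authors' deposited FPKM, which count fragments per transcript length and per mapped fragments of a library. A log2 ratio is that of FPKM plus 1 within a pair of libraries, which understates the change of low genes. The summed FPKM ran from 197844 to 338894 per library, and mitochondrially encoded mRNAs took 3.08% of it in the pulldown against 47.3% in input, and 19.3% in si_LINC00882 against 16.3% in si_NC. The read depth is unknown, so no counting error can be given. LINC00882 was not analysed here, which leaves the extent of silencing unchecked. Of the 6 mesenchymal markers of the line 5 were listed, from 10.7 FPKM for MMP14 in input to 367 FPKM for VIM in input, and SPARC was not analysed here. Of 7 luminal and epithelial markers 3 were listed, EPCAM, ERBB2 and GATA3, at 1.21 to 10.5 FPKM.

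RefSeq promoter windows (GRCh38.p14, 250 bases before to 50 after each start) were matched for 33 of the 40 members. Among the members without an entry were DARS, LARS, VARS, YARS, AARS2 and VARS2. The sequence TGATGCAA, searched on both strands, stood in the windows of 6 of the 14 cytosolic enzyme genes with an entry (42.9%), and in none of the 14 mitochondrial, 2 shared and 3 scaffold genes. Among all RefSeq genes with a window, 1.08% held it. These 6 sites are shown because the motif was found in cytosolic members only, although most cytosolic genes with a window lacked it. It is the ATF4 element named above, and all 6 genes are on the list of ATF4 targets used below. The motif was chosen with earlier results of these data known, so it is not an independent feature. Each is printed with 11 bases on either side, on the strand that carries the motif, with the motif in capitals.
AARS: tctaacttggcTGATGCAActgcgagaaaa
CARS: ttcctagaatcTGATGCAAccgccgccccg
IARS: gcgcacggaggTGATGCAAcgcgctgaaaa
MARS: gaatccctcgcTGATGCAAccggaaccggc
NARS: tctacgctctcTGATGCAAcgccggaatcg
TARS: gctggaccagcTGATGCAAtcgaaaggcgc

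The printed stretches lie at chr16:70289675-70289704 (plus strand) for AARS, chr11:3057407-3057436 (plus) for CARS and chr9:92293692-92293721 (plus) for IARS. Those of MARS, NARS and TARS lie at chr12:57488053-57488082 (minus), chr18:57621804-57621833 (minus) and chr5:33440956-33440985 (minus). Counted from the annotated start as base 1, the motif ran from base -2 to 6 in CARS, from -13 to -6 in IARS, from -4 to 4 in MARS, from 15 to 22 in NARS and from 3 to 10 in TARS, and only in AARS did it lie further away, from -187 to -180. CARS and TARS each have another window, which did not hold the motif. With the looser form TGATGNAA, which includes TGATGCAA and stood in 4.46% of all RefSeq genes with a window, GARS (TGATGAAA) and YARS2 (TGATGGAA) were added. A match describes letters and is not evidence that a factor binds there.

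TARS, the threonyl-tRNA synthetase gene, was the most abundant member in 3 of the 4 libraries, at 61.7 FPKM in the pulldown, and at 77.4 FPKM in si_LINC00882 against 116 FPKM in si_NC. In input the aspartyl-tRNA synthetase gene DARS was first with 70.2 FPKM, followed by TARS with 57.9 FPKM. At the low end of the cytosolic enzymes, MARS (methionine) had 5.51 FPKM in the pulldown and 3.93 FPKM in input. WARS (tryptophan) had 8.34 FPKM in si_LINC00882 against 9.97 FPKM in si_NC, and CARS (cysteine) had 8.98 against 8.89 FPKM.

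The mitochondrial enzyme mRNAs were less abundant as a group in every library. Their median level was 5.28 FPKM in the pulldown against 3.32 FPKM in input, where the cytosolic medians were 14.4 and 7.74 FPKM. It was 6.90 FPKM in si_LINC00882 against 6.66 FPKM in si_NC, where the cytosolic medians were 26.2 and 30.3 FPKM. IARS2, the mitochondrial isoleucyl-tRNA synthetase gene, stood far above the other mitochondrial enzymes in all 4 libraries. It had 47.1 FPKM in the pulldown against 28.5 FPKM in input, and 59.2 FPKM in si_LINC00882 against 67.2 FPKM in si_NC. The next mitochondrial enzyme gene in the pulldown, RARS2, had 10.3 FPKM there. Across the 40 members, which are not replicates, levels ranked alike within the silencer pair (Spearman's rho 0.983) and less alike within the pulldown pair (0.908). All genes showed the same order of the pairs. Pearson's r of log2 of FPKM plus 1 was 0.978 and 0.903 over 11288 genes, beside 0.987 and 0.903 over the members.

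**Figure D1:**
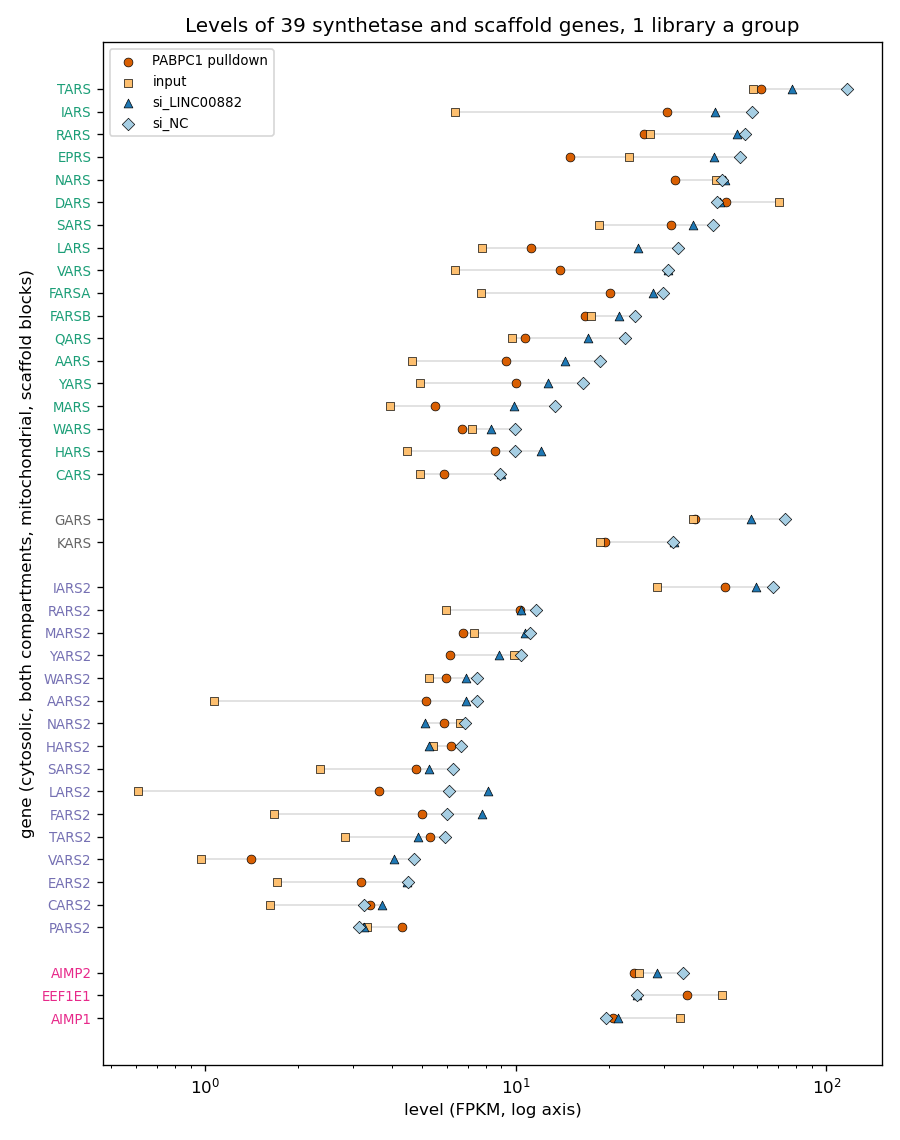
Levels of 39 members in FPKM on a log axis, 1 symbol per library, in blocks from top to bottom of cytosolic enzymes, GARS and KARS, mitochondrial enzymes and scaffold genes, each sorted by the si_NC level. IARS2 stands apart at the top of the mitochondrial block with 28.5 to 67.2 FPKM, and several members, such as IARS, AARS2 and LARS2, have their lowest symbol far to the left in input.

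Synthetase mRNAs varied in the PABPC1 pulldown relative to input, and cytosolic and mitochondrial enzymes overlapped. Of the 40 members 12 lay below the lower quartile of all genes and 7 above the upper one. By definition 25.0% of all genes lie beyond each quartile. The median log2 ratio was 0.31 for the 18 cytosolic enzymes and 0.63 for the 17 mitochondrial enzymes, beside 0.47 for all 10856 genes compared. Without the members that overlap another listed gene, the mitochondrial median was 0.30 (13 genes), below that of all genes, and the cytosolic one 0.17 (16 genes). Of the 40 members 6 were 2-fold or more above input and 0 were 2-fold or more below it, where 19.6% of all genes were above and 2.37% below by that much. The share of 6 in 40 is thus near the background. With the pair centred on the median of all genes, 3 members were 2-fold higher and 4 lower. Centring also changes the share of all genes, which was not computed, so these counts cannot be set beside the shares above. All 40 members reached the minimum of 1 FPKM in either library of a pair, LARS2 and VARS2 through the pulldown level alone, so these 2 could not have been counted as 2-fold lower.

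IARS, which charges isoleucine in the cytosol, had the highest ratio of all members, with 30.8 FPKM in the pulldown against 6.38 FPKM in input (log2 ratio 2.11). FARSA, the catalytic subunit gene of the cytosolic phenylalanine enzyme, had 20.1 against 7.71 FPKM (1.28). VARS, the valine enzyme that associates with elongation factor 1, had 13.8 against 6.40 FPKM (1.00), just at the 2-fold mark. All 3 were also low in input relative to si_NC, where IARS had 57.7, FARSA 29.8 and VARS 30.9 FPKM. YARS (tyrosine) lay just below the mark, with 10.1 FPKM in the pulldown against 4.92 FPKM in input (0.90), as did AARS (alanine) with 9.33 against 4.65 FPKM (0.87). YARS shares part of its span with S100PBP, so the division of fragments between them is uncertain.

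EPRS, whose product charges both glutamate and proline, was the lowest of the cytosolic enzymes, with 14.9 FPKM in the pulldown against 23.2 FPKM in input (-0.60). DARS had 47.4 against 70.2 FPKM (-0.56), and NARS (asparagine) 32.7 against 44.04 FPKM (-0.42). These 3 abundant mRNAs lay below the lower quartile of all genes (0.022), under which 25.0% of genes fall by definition, as did WARS with 6.71 against 7.25 FPKM (-0.10), RARS (arginine) with 25.9 against 27.03 FPKM (-0.058) and FARSB with 16.7 against 17.5 FPKM (-0.063). FARSA and FARSB encode the subunits of a single enzyme, and over input their mRNAs lay on opposite sides of the median of all genes. Over si_NC they stood close together, FARSA at -0.54 and FARSB at -0.51. GARS (glycine) had 37.9 FPKM in the pulldown against 37.2 FPKM in input (0.026), and KARS (lysine) 19.3 against 18.7 FPKM (0.046), both below the median of all genes.

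Among the mitochondrial enzymes, AARS2 had 5.13 FPKM in the pulldown against 1.07 FPKM in input (1.57). LARS2 (leucine) had 3.62 against 0.611 FPKM (1.52), and FARS2 (phenylalanine) 5.01 against 1.67 FPKM (1.17). These were low-level mRNAs, low in input relative to si_NC, where AARS2 had 7.49, LARS2 6.12 and FARS2 6.02 FPKM. FARS2 overlaps LYRM4. SARS2 (serine) had 4.78 against 2.34 FPKM (0.79), below the 2-fold mark. At the other end YARS2 had 6.16 FPKM in the pulldown against 9.84 FPKM in input (-0.60), and NARS2 5.86 against 6.64 FPKM (-0.15). MARS2 had 6.75 against 7.32 FPKM (-0.10), and WARS2 5.98 against 5.28 FPKM (0.15). The abundant IARS2 stood at 0.70.

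The 3 scaffold genes all lay below 0, where 23.9% of all genes did. AIMP1, whose product also gives rise to the cytokine EMAPII, had 20.6 FPKM in the pulldown against 33.9 FPKM in input (-0.69), the lowest ratio of all members. EEF1E1 had 35.6 against 46.03 FPKM (-0.36), and AIMP2 24.02 against 24.9 FPKM (-0.048). AIMP1 overlaps TBCK and AIMP2 overlaps EIF2AK1. The 8 cytosolic or shared enzymes of the multisynthetase complex had a median of 0.09 and the 12 outside it 0.48. IARS stood out within the complex, being its only member at or past 2-fold. By catalytic class the cytosolic medians were 0.40 for the 9 class I and 0.41 for the 8 class II enzymes, EPRS being left out because it holds both folds.

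**Figure D2:**
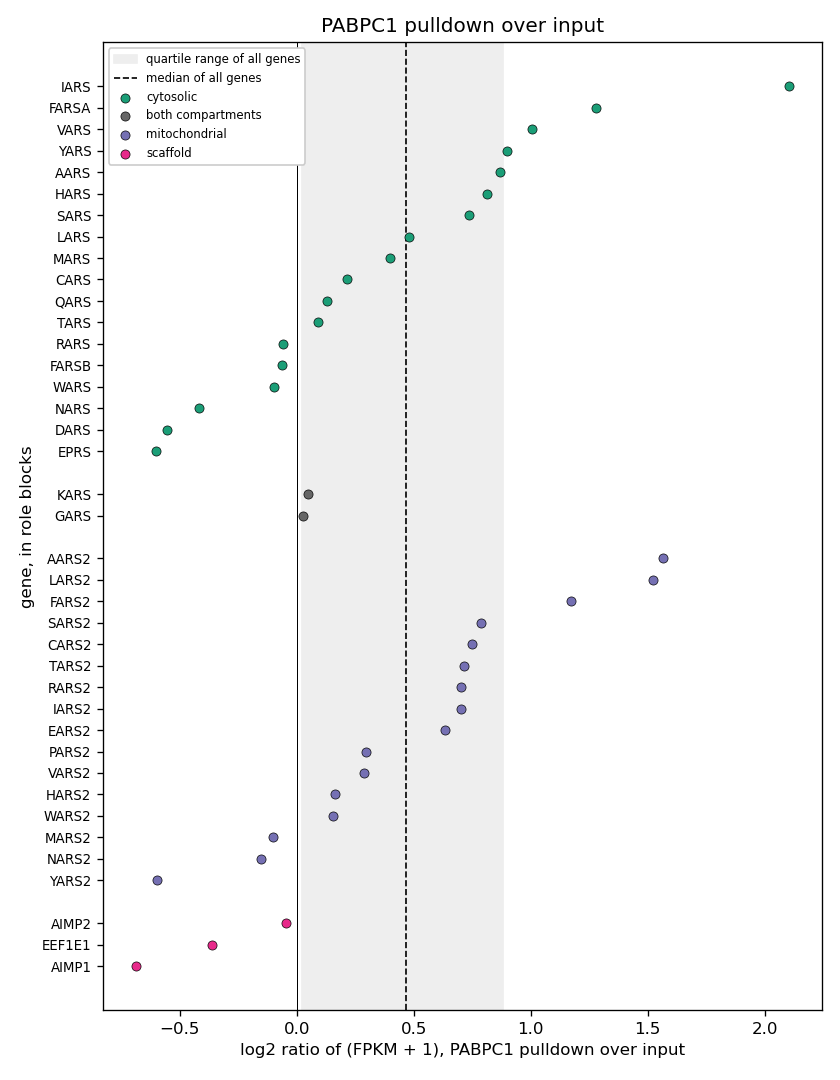
Log2 ratio of FPKM plus 1, PABPC1 pulldown over input, for 39 members in role blocks, with the median of all genes (0.47) as a dashed line and the range between the quartiles of all genes shaded. Cytosolic members spread from -0.60 for EPRS to 2.11 for IARS, mitochondrial ones from -0.60 for YARS2 to 1.57 for AARS2, and the 3 scaffold genes lie left of 0.

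The pulldown was also set beside the si_NC library of the other pair. The pulldown and si_NC tables were normalized separately and come from cells handled differently. The pulldown was the library with the highest level for only 1 of the 40 members, PARS2 (4.31 FPKM in the pulldown, 3.32 in input, 3.24 in si_LINC00882 and 3.12 in si_NC), while it was the highest for 43.9% of the 11288 genes in all 4 libraries. The si_NC library was the highest for 27 of 40 members (67.5%), beside 21.0% of all genes. Input was the lowest for 26 of 40 (65.0%), beside 54.8% of all genes.

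The control libraries of both pairs, input and si_NC, also differed at the synthetase genes. Of the 40 members 18 were at or past 2-fold lower in input and 0 higher, where 19.2% of all 10511 genes compared were lower and 5.95% higher. The cytosolic median log2 ratio was -1.14 and the mitochondrial one -0.86, beside -0.29 for all genes. IARS was lowest, with 6.38 FPKM in input against 57.7 FPKM in si_NC (-2.99). LARS2 followed with 0.611 against 6.12 FPKM (-2.14) and VARS with 6.40 against 30.9 FPKM (-2.11).

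Of the 3 scaffold genes, EEF1E1 and AIMP1 were higher in input and AIMP2 was lower. EEF1E1 had 46.03 FPKM in input against 24.5 FPKM in si_NC (0.88) and AIMP1 33.9 against 19.5 FPKM (0.77), while AIMP2 had 24.9 against 34.6 FPKM (-0.46). DARS, an enzyme of the same complex, had 70.2 against 44.4 FPKM (0.65). The median of input over si_NC was 0.0052 for the mitochondrial ribosomal protein genes and 0.44 for the cytosolic ones, again beside -0.29 for all genes.

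With si_NC in place of input as the control, all 18 cytosolic enzymes lay below the median of all genes (0.16), with a cytosolic median of -0.77, and 16 of 17 mitochondrial enzymes did, with a median of -0.34. In this setting 6 members were at or past 2-fold lower and 0 higher, where 2.48% of all genes were lower and 7.16% higher. EPRS (-1.75), LARS (-1.49), MARS (-1.15), VARS (-1.10) and RARS (-1.05) were the cytosolic ones, and VARS2 (-1.25) the mitochondrial one. LARS, whose product is also known as a leucine sensor for the kinase mTORC1, had 11.2 FPKM in the pulldown, 7.77 in input and 33.3 in si_NC. IARS, the highest member over input, stood at -0.88 over si_NC. Mitochondrial ribosomal protein genes, which serve the same translation system as the mitochondrial enzymes, had a median of 0.14 over input and 0.17 over si_NC (78 genes). Cytosolic ribosomal protein genes had medians of -0.68 and -0.23 (77 genes).

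**Figure D3:**
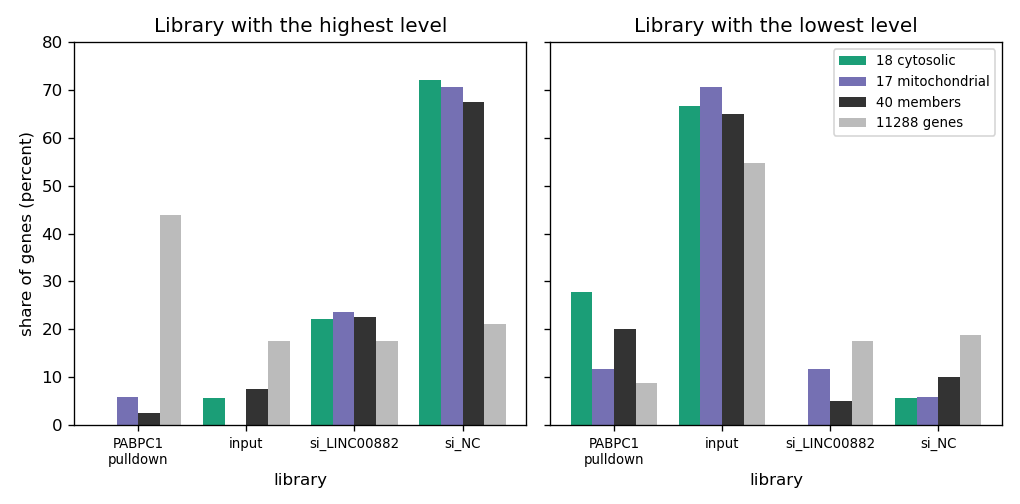
Share of genes in percent whose highest level (left) or lowest level (right) fell in each library, for cytosolic enzymes, mitochondrial enzymes, all 40 members and all 11288 genes in 4 libraries. The pulldown bar on the left reaches 43.9% for all genes and 2.50% for members, and the si_NC bar reaches 21.0% and 67.5%.

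After LINC00882 silencing, synthetase mRNAs were mostly slightly lower. None of the 40 members reached 2-fold in either direction, where 2.01% of all 10478 genes compared did, and none reached 1.5-fold, where 6.80% did. The median log2 ratio was -0.22 for the 18 cytosolic enzymes and -0.10 for the 17 mitochondrial enzymes, beside -0.0056 for all genes. Without the members that overlap another listed gene, these medians were -0.19 (16 genes) and -0.17 (13 genes). Below 0 lay 13 of 18 cytosolic and 12 of 17 mitochondrial enzymes, beside 51.1% of all genes. Below the lower quartile of all genes (-0.16) lay 20 of the 40 members, where 25.0% of all genes do by definition. Set against input instead of si_NC, 15 members were 2-fold or more higher in si_LINC00882, where 19.1% of all genes were. Without replicates, shifts of this size cannot be set against the spread between libraries.

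TARS had the lowest ratio, with 77.4 FPKM in si_LINC00882 against 116 FPKM in si_NC (-0.58), lower than all but 3.8% of genes. LARS followed with 24.8 against 33.3 FPKM (-0.41) and MARS with 9.87 against 13.4 FPKM (-0.41). IARS had 43.9 against 57.7 FPKM (-0.38). These 4 charge threonine, leucine, methionine and isoleucine. MARS overlaps DDIT3, which stood at 5.94 FPKM in si_LINC00882 against 6.38 FPKM in si_NC. GARS had 57.1 against 73.7 FPKM (-0.36), AARS 14.4 against 18.6 FPKM (-0.35) and YARS 12.7 against 16.4 FPKM (-0.35). QARS, the glutamine enzyme, had 17.1 against 22.4 FPKM (-0.37).

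Some cytosolic enzymes stood at nearly equal levels. NARS had 47.1 FPKM in si_LINC00882 against 46.2 FPKM in si_NC (0.028), DARS 45.3 against 44.4 FPKM (0.028) and VARS 31.01 against 30.9 FPKM (0.0055). KARS, with 32.3 against 32.02 FPKM, was likewise level. HARS, the histidine enzyme, was the only cytosolic member above the upper quartile of all genes (0.15), with 12.1 against 9.97 FPKM (0.26). Of the mitochondrial enzymes, LARS2 had 8.13 against 6.12 FPKM (0.36), FARS2 7.82 against 6.02 FPKM (0.33) and CARS2 3.73 against 3.25 FPKM (0.15). LARS and LARS2, both leucine enzymes, thus stood on opposite sides of 0. At the low end were NARS2 with 5.13 against 6.86 FPKM (-0.36), HARS2 with 5.25 against 6.66 FPKM (-0.29), TARS2 with 4.85 against 5.91 FPKM (-0.24) and SARS2 with 5.25 against 6.30 FPKM (-0.23). Of the scaffold genes AIMP2 had 28.4 against 34.6 FPKM (-0.28), AIMP1 21.4 against 19.5 FPKM (0.13) and EEF1E1 24.6 against 24.5 FPKM (0.0037).

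**Figure D4:**
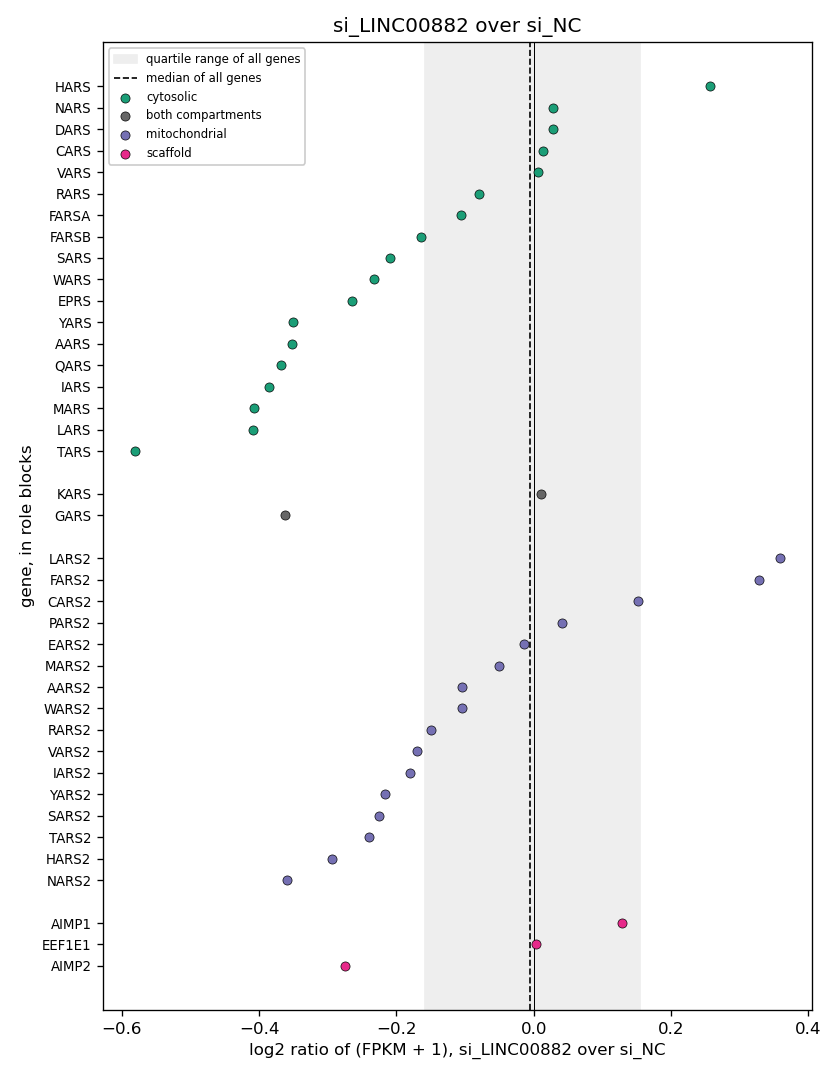
Log2 ratio of FPKM plus 1, si_LINC00882 over si_NC, for 39 members in role blocks, with the median of all genes as a dashed line and the range between the quartiles of all genes shaded. Of 18 cytosolic enzymes 11 lie left of the shaded range, with TARS lowest at -0.58, and HARS alone lies right of it.

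The 11 synthetase genes listed here as ATF4 targets were AARS, CARS, EPRS, GARS, IARS, MARS, NARS, SARS, TARS, WARS and YARS. The list was chosen with earlier results of these data known, so the split below is a description only. These 11 genes had a median of -0.35 in the silencer pair, with 9 of 11 below the lower quartile of all genes. By definition 25.0% of all genes lie below it. The other 9 cytosolic or shared enzymes had a median of -0.08, with 3 of 9 below that quartile, LARS (-0.41) and QARS (-0.37) among them. With si_LINC00882 set over input instead, the medians were 0.88 for the 11 and 0.91 for the 9, beside 0.28 for all genes. Of the 6 genes printed above with TGATGCAA, 4 lay below 0 (AARS, IARS, MARS and TARS) while CARS (0.013) and NARS (0.028) did not, and their median was -0.37. The 10 cytosolic or shared genes with a window and no TGATGCAA had a median of -0.19, with 8 below 0. Of all genes 51.1% lay below 0. In the pulldown pair the medians were 0.31 for the 6 and 0.036 for the 10, beside 0.47 for all genes. ATF4 mRNA itself stood at 84.3 FPKM in si_LINC00882 against 92.4 FPKM in si_NC (-0.13). EIF2AK4, the kinase GCN2 that senses uncharged tRNA, stood at 10.05 against 11.3 FPKM (-0.15).

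HARS and HARS2 are neighbours transcribed away from each other, and the 84 bases between their annotated starts (chr5:140691371-140691454, plus strand, GRCh38.p14) are shown because both genes begin at this shared stretch. No capitals are used, since TGATGNAA is not in it.
HARS to HARS2: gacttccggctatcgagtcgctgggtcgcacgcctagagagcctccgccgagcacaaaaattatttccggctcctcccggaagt

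The log2 ratios of the pair differed in both comparisons. HARS had 8.59 FPKM in the pulldown against 4.46 FPKM in input (0.81), while HARS2 had 6.19 against 5.41 FPKM (0.17). With the pulldown set over si_NC instead, they stood close together, HARS at -0.19 and HARS2 at -0.09. After silencing HARS stood above 0 and HARS2 below it, as given above. The order of their levels differed as well. HARS exceeded HARS2 in the pulldown, at 1.39 times its level, while in input it was at 0.824 times HARS2. The ratio was 2.30 in si_LINC00882 against 1.496 in si_NC.

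For 14 amino acids a single cytosolic gene can be set beside a single mitochondrial gene within each library, since FPKM are per length. The cytosolic gene was the more abundant in 12 of 14 pairs in the pulldown and 10 of 14 in input, and in 12 of 14 in si_LINC00882 and 13 of 14 in si_NC. The median ratio was 2.16 in the pulldown against 4.44 in input, and 2.73 in si_LINC00882 against 2.93 in si_NC. TARS over TARS2 was the highest in every library, at 11.7 in the pulldown against 20.5 in input, and at 15.95 in si_LINC00882 against 19.7 in si_NC. IARS over IARS2 was the only ratio below 1 in all 4 libraries, at 0.654 against 0.224 and at 0.743 against 0.858. In the pulldown pair the log2 ratio of the cytosolic gene exceeded that of the mitochondrial gene in 5 of 14 pairs, and in the silencer pair in 5 of 14.

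**Figure D5:**
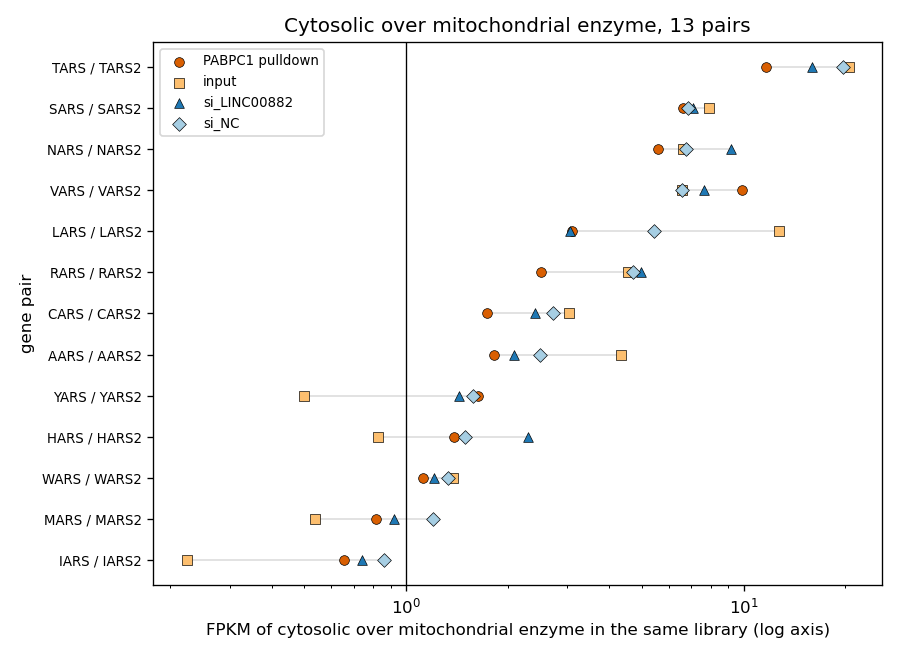
FPKM of the cytosolic enzyme gene over that of the mitochondrial enzyme gene for the same amino acid, for 13 pairs in each library, on a log axis with a line at 1. TARS over TARS2 lies between 11.7 and 20.5, and IARS over IARS2 lies left of 1 in all 4 libraries. Input stands apart for pairs such as those of YARS, LARS and IARS.

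Other genes of tRNA biology were described from fixed lists. In the pulldown pair 19.6% of all genes were higher by 2-fold or more and 2.37% lower (median 0.47). Of 23 genes of tRNA maturation and export 3 were higher and 0 lower (median 0.18). The lists are small, so a count a few genes off the share of all genes is not read as a result. The intron-splicing endonuclease subunit gene TSEN15 had 47.4 FPKM in the pulldown against 19.8 FPKM in input (1.22), and the tRNA 3′ processing nuclease gene ELAC2 12.5 against 5.09 FPKM (1.15). The third was POP4, a subunit gene of ribonuclease P, with 8.34 against 3.52 FPKM (1.05). Of 37 tRNA modification genes 3 were higher and 0 lower (median 0.36), beside the 19.6% and 2.37% of all genes. Among the 3 was the methyltransferase subunit gene TRMT61A, at 10.3 against 4.16 FPKM (1.13). NSUN2, a cytosine methyltransferase gene, with 35.4 against 17.4 FPKM (0.99), and the adenosine deaminase gene ADAT1, with 6.57 against 3.28 FPKM (0.82), were below the mark. The others past 2-fold, below 5 FPKM and named after their values were seen, were the dihydrouridine synthase gene DUS2 (2.28 against 0.368 FPKM, 1.26) and the mitochondrial tRNA modification gene GTPBP3 (3.85 against 1.17 FPKM, 1.16). DUS2 reached the minimum of 1 FPKM through the pulldown level alone, so it could not have been counted as 2-fold lower. Of 12 relatives and charging helpers 1 was lower (median 0.13), AARSD1, a relative of the editing domain of AARS, with 1.56 against 4.77 FPKM (-1.17). DTD2, a deacylase that removes wrongly charged amino acids, had 7.33 against 15.2 FPKM (-0.96), and PTRH2, a peptidyl-tRNA hydrolase, 14.4 against 9.81 FPKM (0.51). In si_NC, TSEN15 had 13.3, ELAC2 18.2, POP4 4.55, TRMT61A 9.54, DUS2 3.21 and GTPBP3 4.30 FPKM. Over si_NC the median was -0.0016 for maturation and export, -0.20 for modification and -0.12 for relatives and helpers, beside 0.16 for all genes.

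In the pulldown pair, 4 of 21 genes of the amino acid response and uptake were at or past 2-fold higher and 0 lower (median 0.51), near the 19.6% and the median of 0.47 of all genes. The leucine transporter gene SLC7A5 had 110 FPKM in the pulldown against 34.1 FPKM in input (1.66), and GCN1, the partner of GCN2, 14.6 against 4.63 FPKM (1.47). SLC7A1, a transporter of cationic amino acids, had 36.0 against 15.6 FPKM (1.16). The fourth was the stress-induced transcription factor gene ATF3, named after its values were seen, with 2.40 against 0.149 FPKM (1.57). ATF3 reached the minimum of 1 FPKM through the pulldown level alone, so it could not have been counted as 2-fold lower. Of the 5 elongation factor 1 genes 1 was higher, the isoform gene EEF1A2 with 9.27 against 3.99 FPKM (1.04), and the median was -0.32. The main isoform gene EEF1A1 had 354 against 461 FPKM (-0.38). In si_NC, SLC7A5 had 109, GCN1 24.6, SLC7A1 31.6, ATF3 1.17 and EEF1A2 2.31 FPKM. Over si_NC the median was -0.27 for the amino acid response genes and -0.69 for the elongation factor 1 genes, beside 0.16 for all genes.

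In the silencer pair, where 51.1% of all genes lay below 0 and 2.01% reached 2-fold in either direction (median -0.0056), 29 of 38 tRNA modification genes lay below 0 (median -0.07), and 0 reached 2-fold. The methyltransferase gene TRMT11 had 6.67 FPKM in si_LINC00882 against 10.7 FPKM in si_NC (-0.61), and the pseudouridine synthase gene PUS1 3.23 against 5.53 FPKM (-0.63). The methyltransferase gene TRMT1 went the other way, with 11.5 against 7.89 FPKM (0.49). TSEN15 was the only maturation gene of 22 at or past 2-fold, with 29.2 against 13.3 FPKM (1.07), and 10 of the 22 lay below 0. AARSD1 was the only one of 13 relatives and helpers, with 9.38 against 2.64 FPKM (1.51). Of 22 amino acid response genes 15 lay below 0 (median -0.11), beside the 51.1% of all genes, and 0 reached 2-fold. Asparagine synthetase ASNS stood at 10.6 against 16.2 FPKM (-0.57), the transcription factor gene CEBPB at 29.02 against 40.6 FPKM (-0.47) and the serine pathway gene PSAT1 at 44.8 against 62.5 FPKM (-0.47). Another 7 of the 22 lay above 0. SLC7A1, given here after its values were seen, was the highest of the list, with 41.5 against 31.6 FPKM (0.38).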

How the data were processed

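Per the file headers, the values that the authors deposited are FPKM per gene, in a table for each library. StringTie 1.3.3, HISAT2 2.1.0, cutadapt 1.17, FastQC 0.11.7 and the build GRCh37 appear, without role or order, per the submitters' processing notes. The sources used here do not give the annotation, filters or depth. Groups came from the sample labels. Log2 ratios of FPKM plus 1 were computed within each pair over genes that reached 1 FPKM in at least 1 of its libraries, and 2-fold (log2 ratio of 1) was the size rule. With 1 library per group no test was run. Members given in full were those past 2-fold, the 4 highest and 4 lowest ratios per role where these add a value, and the most and least abundant. The values of 1 mitochondrial enzyme gene are not reported here singly; it is counted in the group values and not drawn. Of the pathway lists, up to 3 genes of at least 5 FPKM with the largest ratios were named. Members, lists and the promoter motif were chosen with earlier results of these data known. All 40 symbols matched RefSeq genes (18 under a newer symbol), used for names, overlaps and promoter windows. The ratio step was tested on simulated data. Python 3.11.15, numpy 2.4.6, pandas 2.3.3, scipy 1.17.1 and matplotlib 3.10.9 were used.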

Additional observations from a re-analysis of the deposited data

How the results depend on the processing

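The cytosolic median minus the mitochondrial median of the pulldown pair (-0.33) was -0.36 with a pseudocount of 0.1, -0.16 with 5, -0.19 with a minimum of 5 FPKM, -0.34 rescaled without mitochondrially encoded mRNAs, -0.43 over si_NC, -0.13 without the 8 members that overlap another listed gene and -0.46 with GARS and KARS as cytosolic. The 6 members at or past 2-fold became 1 with a pseudocount of 5, 19 at 1.5-fold and 1 at 3-fold. At 1.5-fold 48.8% of all genes were counted in either direction, so the 19 members are near the background. The share of all genes with a pseudocount of 5 or at 3-fold is not given here, so those counts cannot be set beside it. In the silencer pair the difference (-0.12) was -0.12 with a pseudocount of 0.1, -0.11 with 5, -0.071 with a minimum of 5 FPKM, -0.12 rescaled and -0.016 without overlapping members. Over input instead of si_NC it reversed to 0.085, and 15 members reached 2-fold, all higher, where 19.1% of all genes were; the cause was not tested. No paired analysis was possible because each group was 1 library. Depth is unknown, so the precision of low members such as LARS2 and VARS2 in input cannot be given.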
